A study of Arabidopsis thaliana with 18 samples.

Results

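The tryptophan synthesis enzymes are described here through 7 Arabidopsis thaliana genes, taken by locus identifier from the 32678 genes of a count table of polyadenylated leaf RNA. They are ASA1 (AT5G05730), ASA2 (AT2G29690), PAT1 (AT5G17990), IGPS (AT2G04400), TSA1 (AT3G54640), TSB1 (AT5G54810) and TSB2 (AT4G27070). The rule that picks them uses no measured value, but the members were chosen with earlier results of these data known. All 7 were among the 19227 genes that passed the filter on low counts.

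Tryptophan is made in the plastid from chorismate, the last product of the shikimate pathway. Anthranilate synthase turns chorismate into anthranilate and is inhibited by tryptophan. Its alpha subunit is encoded by ASA1 and ASA2. The transferase PAT1 adds a phosphoribosyl group, an isomerase rearranges the product, and indole-3-glycerol phosphate synthase (IGPS) closes the indole ring. Tryptophan synthase alpha (TSA1) releases indole, and tryptophan synthase beta (TSB1 and TSB2) joins indole to serine. In leaves the product serves protein synthesis and is the precursor of auxin, of indole glucosinolates and of the phytoalexin camalexin, while chorismate is also the precursor of the defence hormone salicylic acid.

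All groups came from the line ED-P4E1 in accession Col-0, a double mutant for eds1-2 and pad4-1 in which a PAD4 transgene answers to estradiol and an EDS1 transgene is driven throughout by the 35S promoter. PAD4 and EDS1 are lipase-like proteins of plant immunity. Plants 4 weeks old, grown at 22 °C with light for 10 h a day, received a spray of 10 µM estradiol or a mock spray holding 0.2% DMSO, each containing 0.01% of a silwet surfactant. Leaves were taken 6, 12 or 24 h later, with 3 libraries in each of the 6 groups. The mock groups carry the same transgenes and mutations, no line without the inducible gene is among the groups, and since separate plants are not stated for the libraries, the tests weigh differences against a spread that may be technical.

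The libraries held 19.1 to 48.1 M gene counts each (median 28.9 M). PAD4 was 6.84-fold, 19.1-fold and 14.1-fold higher in estradiol than in mock leaves at 6, 12 and 24 h (adjusted p 0.000119, 1.88e-07 and 3.05e-08, edgeR quasi-likelihood test), and EDS1 passed the test at no time. The 4 leaf markers summed to between 17822 and 67548 CPM (gene counts scaled to the size of the library), the 4 root markers to between 0.0401 and 1.42 CPM and the 4 flower markers to between 0.695 and 3.08 CPM in single libraries. Of the root markers, PIN2 and COBL9 had no count in either group at 6 h. At 12 h the leaf marker LHCB1.1 was higher in estradiol leaves (log2 fold change 1.02, adjusted p 0.00631) and RCA (-0.39, adjusted p 0.00560) and CA1 (-0.27, adjusted p 0.0185) were lower, and at 24 h the epidermal marker ATML1 (-0.23, adjusted p 0.0107) and the phloem marker SUC2 (-0.21, adjusted p 0.0453) were lower, 2 of 6 epidermal and vascular markers, whose sum ran from 654 to 699 CPM in estradiol and from 711 to 785 CPM in mock leaves. The call of SUC2 was lost under 9 of 15 alternatives, that of ATML1 without mock replicate 2 and in the fit of the 24 h libraries alone, that of LHCB1.1 without estradiol replicate 1 of 12 h (0.64, adjusted p 0.0513), and that of CA1 without that library or mock replicate 3 of 12 h. Their part in the results was not tested. A pair of libraries stood apart in 9 jasmonate genes, all 9 of which were counted in each group. The median log2 difference of these genes from the mock mean of their time was 1.34 in estradiol replicate 3 at 6 h, against 0.25 and -0.27 in the other estradiol libraries of that time. It was 0.76 in mock replicate 2 at 24 h, against -0.24 and -0.27 in the other mock libraries of that time. Summed over the 9 genes, the level ran from 5394 to 15587 CPM in estradiol and from 6623 to 7394 CPM in mock leaves at 6 h, and from 1072 to 1614 CPM in estradiol and from 1252 to 2655 CPM in mock leaves at 24 h. Of these genes TAT3 alone passed between estradiol and mock leaves, at 24 h, and it was higher (log2 fold change 4.77, adjusted p 0.00441). TAT3 was low in mock leaves of that time (0.448 CPM, 41 counts in all). Its call was lost under 1 of 15 alternatives (adjusted p up to 0.0552). The median log2 fold change of the 9 at 24 h was -0.54. For the tryptophan synthesis genes the median log2 difference from the mock mean was 0.59 in estradiol replicate 3 at 6 h. It was 0.19 in mock replicate 2 at 24 h. Results for the 7 genes that rest on either library are given with and without it.

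**Figure D1:**
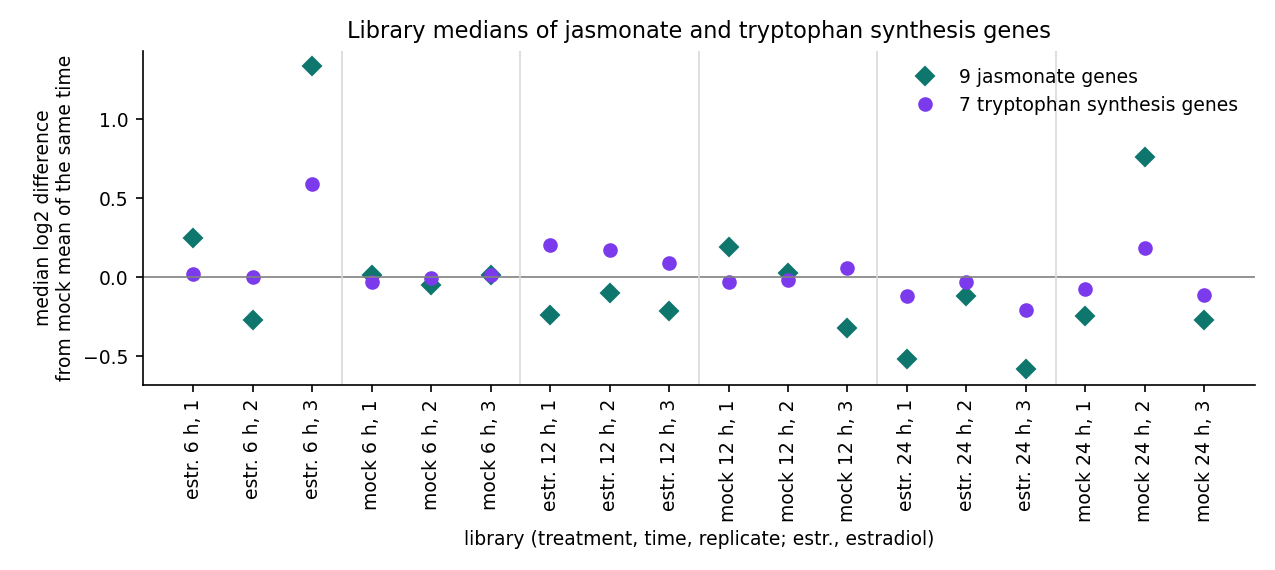
Median log2 difference from the mock mean of the same time (y axis) in each of the 18 libraries (x axis), for the 9 jasmonate genes (diamonds) and the 7 tryptophan synthesis genes (circles). Estradiol replicate 3 at 6 h (1.34 and 0.59) and mock replicate 2 at 24 h (0.76 and 0.19) lie above the other libraries of their groups in both sets.

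The anthranilate synthase genes ASA1 and ASA2 and the tryptophan synthase beta genes TSB1 and TSB2 are isoenzyme pairs whose members followed different courses. The 250 bases before the annotated start are shown for the ASA pair and for TSB2, the gene called with ASA1 at 24 h (RefSeq, assembly TAIR10.1). The windows are chr5:1722934-1723183 (minus strand) for ASA1, chr2:12693484-12693733 (plus strand) for ASA2 and chr4:13586018-13586267 (plus strand) for TSB2. They overlap no neighbouring gene. Capitals mark the W box (TTGACC or TTGACT, bound by WRKY factors), AATATCT (part of the evening element, bound by clock factors) and TGACG (the core bound by TGA factors), on either strand.
ASA1: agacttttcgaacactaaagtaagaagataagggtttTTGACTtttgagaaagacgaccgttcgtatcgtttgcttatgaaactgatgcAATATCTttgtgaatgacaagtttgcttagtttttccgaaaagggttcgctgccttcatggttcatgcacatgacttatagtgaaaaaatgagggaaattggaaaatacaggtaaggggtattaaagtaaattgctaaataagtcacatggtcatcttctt
ASA2: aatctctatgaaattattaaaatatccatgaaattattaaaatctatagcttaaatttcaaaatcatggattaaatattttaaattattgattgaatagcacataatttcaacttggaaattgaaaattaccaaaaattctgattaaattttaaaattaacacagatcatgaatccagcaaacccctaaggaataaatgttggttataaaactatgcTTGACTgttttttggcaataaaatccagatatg
TSB2: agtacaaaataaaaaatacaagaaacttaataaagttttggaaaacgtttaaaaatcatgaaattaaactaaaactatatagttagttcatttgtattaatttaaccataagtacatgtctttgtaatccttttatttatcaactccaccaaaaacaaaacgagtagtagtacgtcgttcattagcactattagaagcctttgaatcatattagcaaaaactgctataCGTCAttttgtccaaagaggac

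A W box lay 213 bases before the gene start in ASA1 and 33 bases before it in ASA2, and none was found in the window of TSB2. The motif was also held by IGPS with 1 match and by PAT1 and TSA1 with 2 each, whose windows overlap the neighbouring genes AT5G17980 and AT3G54650, and 28.4% of 27443 windows of this length in the annotation hold at least 1. AATATCT was found in ASA1 and TSA1 (10% of all windows), the G box CACGTG in IGPS (6.49%), TGACG in TSB2, 22 bases from the start (18.6%), and the GCC box GCCGCC in none of these genes (1.87%). The letters TGAC are shared by the W box and TGACG, whose next base differs. These matches describe letters in a window and say nothing of a factor's binding.

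At 6 h none of the 7 genes passed the test between estradiol and mock leaves in either direction, and the estradiol library with high jasmonate genes was the highest of its group in 6 of them. ASA1 had 47.0, 50.3 and 77.8 CPM in estradiol leaves, against 48.6, 49.8 and 53.6 CPM in mock leaves. TSA1, which releases indole, had 57.8, 47.1 and 94.7 CPM in estradiol leaves, against 52.4, 46.9 and 50.4 CPM in mock leaves. In both genes 1 estradiol library was far above the rest and the groups overlapped. The same library was the highest of its group in PAT1 (135 CPM, against 84.9 and 94.7 CPM in the other estradiol libraries), IGPS (87.7 CPM, against 53.8 and 55.2 CPM), TSB1 (333 CPM, against 248 and 260 CPM) and TSB2 (14.2 CPM, against 9.06 and 9.46 CPM), but not in ASA2, where the libraries ran from 47.3 to 50.8 CPM in estradiol leaves and from 45.3 to 47.3 CPM in mock leaves.

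The log2 fold changes at 6 h were positive for 7 of 7 genes, with a median of 0.21, against 0.01 over all genes tested. Of all genes, 0.026% were called higher and 0.0104% lower at an adjusted p below 0.05 in edgeR's quasi-likelihood test. Only TSA1 had an unadjusted p below 0.05 (log2 fold change 0.42, SE 0.17, adjusted p 0.606), and DESeq2 and limma-voom called 0 of the 7. At 6 h 7.57% of all genes had an unadjusted p below 0.05. Without estradiol replicate 3 the log2 fold change of TSA1 was 0.07 and the median of the 7 genes 0.02, with 0.02 for IGPS, 0.03 for TSB1 and 0.08 for ASA2, and ASA1, PAT1 and TSB2 turned to -0.06, -0.06 and -0.0019.

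At 12 h the 3 estradiol libraries lay above the 3 mock libraries in 5 of the 7 genes, as in 14.6% of all genes tested, and none passed the test. IGPS, which closes the indole ring, had 62.1, 57.0 and 48.7 CPM in estradiol leaves, against 42.5, 41.8 and 42.0 CPM in mock leaves. TSA1 had 57.2, 52.9 and 44.5 CPM in estradiol leaves, against 37.6, 38.8 and 41.6 CPM in mock leaves. ASA1 had 77.9, 72.1 and 69.2 CPM in estradiol leaves, against 60.3, 59.4 and 63.6 CPM in mock leaves. In these genes every estradiol library exceeded every mock library. PAT1 (110.1 to 117 CPM in estradiol leaves, 101 to 108 CPM in mock leaves) and TSB1 (155 to 176 CPM in estradiol leaves, 152 to 154 CPM in mock leaves) did not overlap either, by narrow margins. ASA2 (41.8 to 46.1 CPM in estradiol leaves, 40.02 to 42.6 CPM in mock leaves) and TSB2 (3.55 to 4.40 CPM in estradiol leaves, 3.86 to 4.41 CPM in mock leaves) overlapped.

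Of all genes, 4.64% were called higher and 5.07% lower at 12 h. The log2 fold change was 0.41 for IGPS (SE 0.14, adjusted p 0.0716), 0.39 for TSA1 (SE 0.17, adjusted p 0.159) and 0.26 for ASA1 (SE 0.15, adjusted p 0.307) in edgeR's quasi-likelihood test. IGPS and TSA1 were the 2 genes with an unadjusted p below 0.05, beside 24.2% of all genes, and the median of the 7 genes was 0.13, against -0.01 over all genes. The calls differed with the fit: DESeq2 called IGPS (adjusted p 0.0392), limma-voom called 0 of the 7, and a fit of the 12 h libraries alone called ASA1, IGPS and TSA1 (adjusted p 0.0164, 0.0120 and 0.0185). The same 3 genes passed (adjusted p 0.00700, 0.00112 and 0.00775) when both libraries with high jasmonate genes, neither of them from 12 h, were left out of the fit, a setting chosen after the values were seen; over all alternatives the adjusted p ran from 0.00700 to 0.599 for ASA1, from 0.00112 to 0.308 for IGPS and from 0.00775 to 0.461 for TSA1.

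At 24 h ASA1 and TSB2 were lower in estradiol leaves, by 1.56-fold and 1.53-fold, and the other 5 genes did not pass the test. ASA1 had 33.7, 33.2 and 32.7 CPM in estradiol leaves, against 46.5, 65.3 and 42.9 CPM in mock leaves. TSB2 had 17.7, 17.4 and 16.3 CPM in estradiol leaves, against 22.1, 32.1 and 24.3 CPM in mock leaves. The groups did not overlap in either gene, with the estradiol libraries all below the mock libraries as in 14.9% of all genes, and the highest mock value in both was that of replicate 2, the library with high jasmonate genes. The log2 fold change was -0.64 for ASA1 (SE 0.16, adjusted p 0.00912) and -0.62 for TSB2 (SE 0.14, adjusted p 0.00642) in edgeR's quasi-likelihood test, in which 8.43% of all genes were called higher and 6.54% lower. In leaf tissue, fewer cells with a transcript and less of it per cell cannot be told apart.

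Both calls at 24 h were lost when mock replicate 2 alone was left out. Without it the log2 fold changes were -0.43 for ASA1 (adjusted p 0.0805) and -0.44 for TSB2 (adjusted p 0.0606). A fit with that library and estradiol replicate 3 of 6 h both left out was chosen after the values were seen. Its log2 fold changes were the same, and both genes passed in it (adjusted p 0.000328 for ASA1 and 0.00418 for TSB2). Because of that choice it does not restore the lost calls. Over all alternatives, that fit among them, the adjusted p ran from 0.000328 to 0.0805 for ASA1 and from 0.00150 to 0.0606 for TSB2.

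The partners of these genes, ASA2 and TSB1, did not pass the test at 24 h. ASA2 had 21.5, 22.8 and 20.2 CPM in estradiol leaves, against 22.1, 22.8 and 21.4 CPM in mock leaves. TSB1 had 92.9, 93.9 and 83.0 CPM in estradiol leaves, against 99.96, 103 and 86.1 CPM in mock leaves. Estradiol and mock libraries overlapped in both genes, with log2 fold changes of -0.05 for ASA2 (SE 0.06, adjusted p 0.647) and -0.10 for TSB1 (SE 0.09, adjusted p 0.519). PAT1 (79.5 to 82.3 CPM in estradiol leaves, 73.8 to 86.8 CPM in mock leaves), IGPS (53.0 to 58.0 CPM in estradiol leaves, 58.0 to 73.5 CPM in mock leaves) and TSA1 (39.6 to 44.0 CPM in estradiol leaves, 39.7 to 49.1 CPM in mock leaves) overlapped as well. The median log2 fold change of the 7 genes was -0.10, against -0.03 over all genes.

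**Figure D2:**
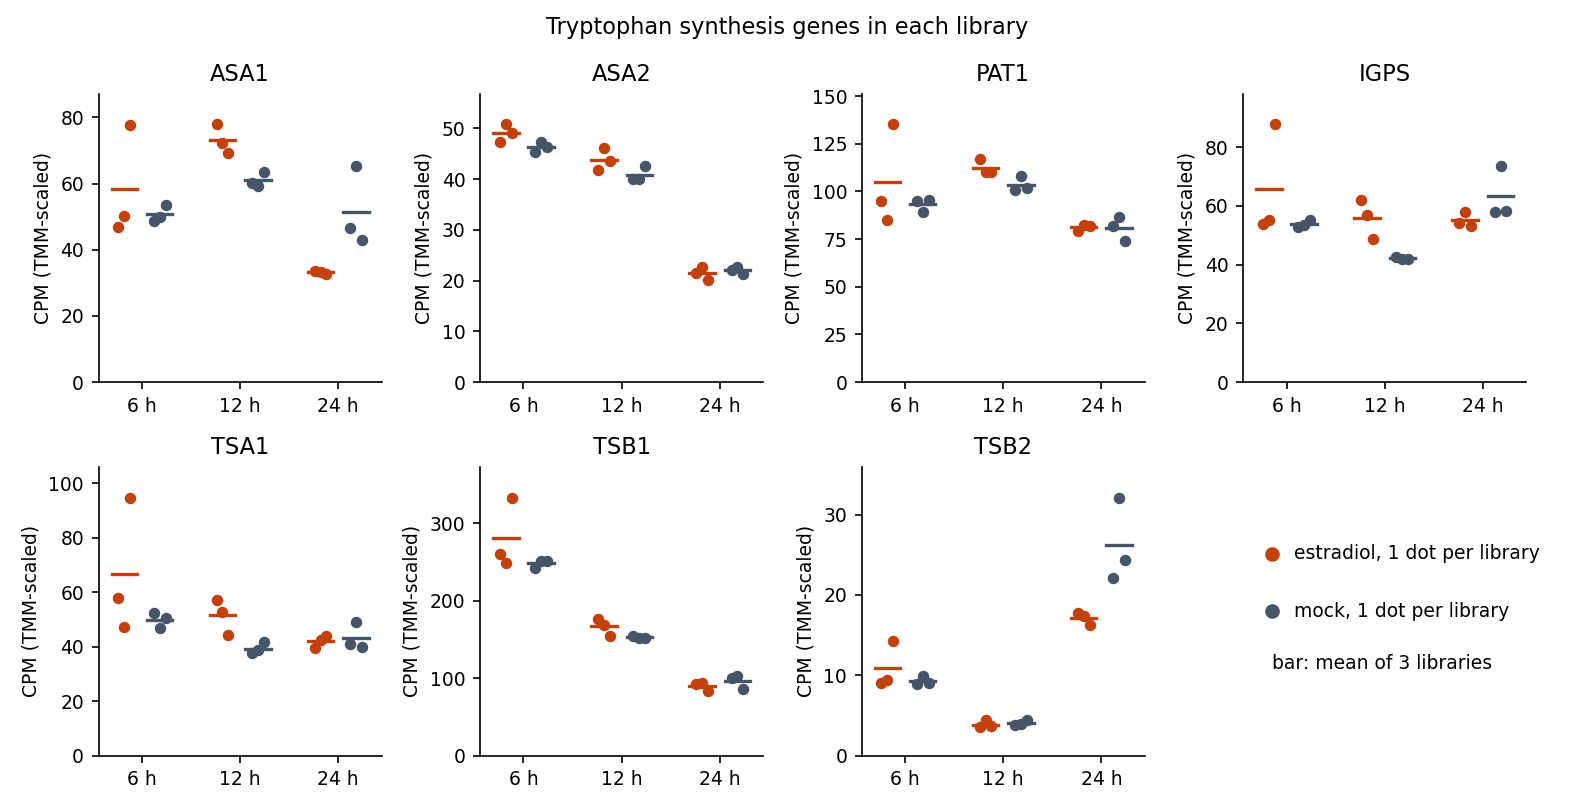
TMM-scaled CPM (y axis, from 0) of each gene by time (x axis), with 1 dot per library and a bar at the mean of 3 libraries, estradiol left of mock. In ASA1 and TSB2 the 3 estradiol libraries of 24 h (32.7 to 33.7 and 16.3 to 17.7 CPM) lie below the 3 mock libraries (42.9 to 65.3 and 22.1 to 32.1 CPM).

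The change of the estradiol effect between times was tested directly. Such a change may go with time after spraying or with time of day, which cannot be told apart here. ASA1 was the 1 gene of 7 that passed: its log2 effect was -0.64 at 24 h and 0.26 at 12 h, a change of -0.90 (SE 0.22, adjusted p 0.0341). Of all genes, 1.85% were called for a change in the higher direction and 0.265% in the lower direction between these times. The changes were negative for 7 of 7 genes, with a median of -0.43, against 0.0027 over all genes, and IGPS had the next smallest adjusted p (change of -0.62, SE 0.20, adjusted p 0.149). The ASA1 change did not pass when any 1 of 9 libraries was left out (adjusted p 0.0588 to 0.114): estradiol replicates 1 and 2 and all 3 mock replicates of 12 h, all 3 estradiol replicates of 24 h, or mock replicate 2 of 24 h. Its size stayed between -1.01 and -0.69, and its adjusted p ran from 0.000211 to 0.114 over all alternatives. Between 12 and 6 h none of the 7 passed, none had an unadjusted p below 0.05, DESeq2 and limma-voom called none, and 0.312% of all genes were called in the higher and 0.478% in the lower direction.

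**Figure D3:**
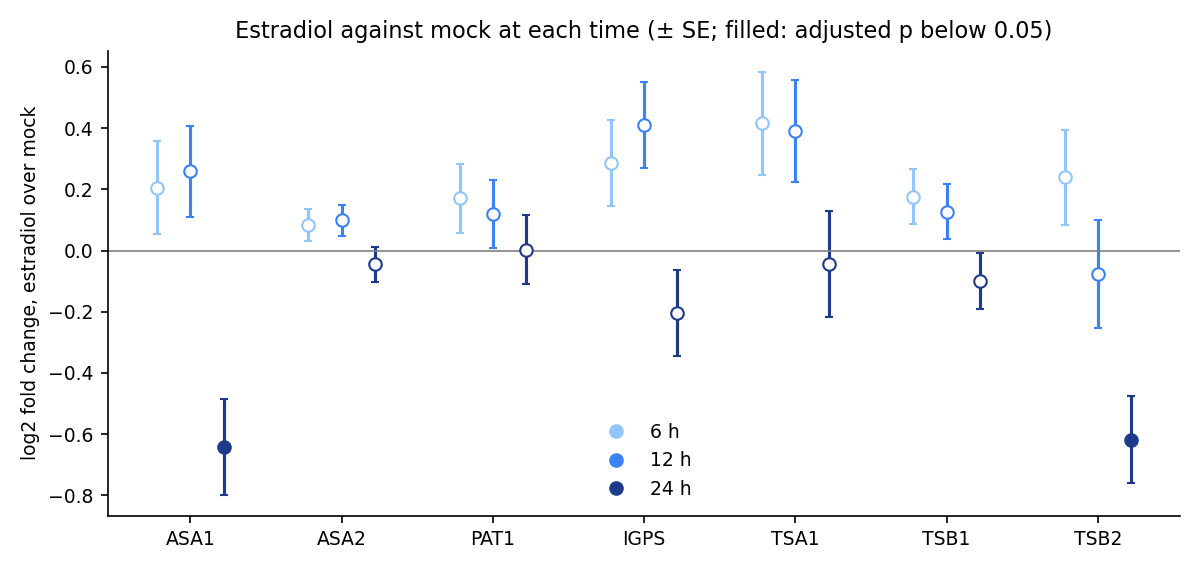
Log2 fold change of estradiol over mock leaves (y axis) for each gene (x axis) at 6, 12 and 24 h, light to dark; bars are 1 SE and filled points have an adjusted p below 0.05. The filled points are ASA1 (-0.64) and TSB2 (-0.62) at 24 h.

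In mock leaves 5 of the 7 genes passed the test between at least 1 pair of times. With light for 10 h a day, time after spraying and time of day cannot be told apart in these comparisons. The leaf marker LHCB1.1 averaged 6537 CPM at 6 h, 53.7 CPM at 12 h and 6755 CPM at 24 h in mock leaves. The tryptophan synthase beta genes took opposite courses between 12 and 24 h. TSB1 had 242, 251 and 251 CPM at 6 h, 154, 152 and 152 CPM at 12 h and 99.96, 103 and 86.1 CPM at 24 h, so each later group lay wholly below the earlier one. TSB2 had 8.96, 9.93 and 9.04 CPM at 6 h, 3.86, 3.88 and 4.41 CPM at 12 h and 22.1, 32.1 and 24.3 CPM at 24 h, so it was lowest at 12 h and highest at 24 h with no overlap. At 24 h against 12 h TSB2 was 6.46-fold higher (log2 2.69, SE 0.16, adjusted p 1.91e-11) and TSB1 was 1.59-fold lower (log2 -0.67, SE 0.09, adjusted p 2.40e-06, edgeR's quasi-likelihood test). At 12 h against 6 h both fell, TSB2 by 1.19 (SE 0.17, adjusted p 4.81e-06) and TSB1 by 0.70 (SE 0.09, adjusted p 1.77e-06) on the log2 scale.

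ASA2 had 45.3, 47.3 and 46.3 CPM at 6 h, 40.02, 40.04 and 42.6 CPM at 12 h and 22.1, 22.8 and 21.4 CPM at 24 h in mock leaves. Its groups did not overlap, and the fall at 24 h against 12 h was 1.85-fold (log2 -0.89, SE 0.05, adjusted p 3.03e-11). ASA1 passed the test in none of the mock comparisons, with mean levels of 50.7 ± 2.62 CPM at 6 h, 61.1 ± 2.20 CPM at 12 h and 51.6 ± 12.0 CPM at 24 h (SD, n = 3 each). Without mock replicate 2 of 24 h it was lower at 24 h than at 12 h (log2 -0.45, adjusted p 0.00898, with a range of 7.22e-06 to 0.485 over the alternatives). IGPS was higher at 24 h than at 12 h (log2 0.59, SE 0.14, adjusted p 0.000917) and lower at 12 h than at 6 h (log2 -0.35, SE 0.14, adjusted p 0.0344). The IGPS fall at 12 h did not pass when any 1 library of the contrast was left out (adjusted p 0.0599 to 0.0820, with a range of 2.92e-06 to 0.0820 over the alternatives). PAT1 was lower at 24 h than at 12 h (log2 -0.36, SE 0.11, adjusted p 0.00788), and TSA1 passed in none of the mock comparisons.

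In mock leaves 4 of the 7 genes were called lower at 12 h against 6 h, beside 33.7% of all genes called higher and 30.6% called lower. At 24 h against 12 h 2 were called higher and 3 lower, beside 35.9% and 39.1% of all genes. At 24 h against 6 h TSB2 was called higher and ASA2 and TSB1 lower, beside 34.3% and 31.9% of all genes. Calls between times were thus common over the whole table, and no test set the 7 genes against it.

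Ordered by their mean CPM, the groups of ASA1 ran from estradiol leaves at 12 h (73.1 ± 4.41 CPM), which overlapped no mock library of that time, through mock leaves at 12 h, estradiol leaves at 6 h, mock leaves at 24 h and mock leaves at 6 h, each overlapping the next, to estradiol leaves at 24 h (33.2 ± 0.517 CPM), which lay below every other group (SD, n = 3). The highest group mean exceeded the lowest by 1.39-fold in PAT1, 1.56-fold in IGPS, 1.69-fold in TSA1, 2.20-fold in ASA1, 2.28-fold in ASA2, 3.12-fold in TSB1 and 6.78-fold in TSB2. In TSA1 every group overlapped its neighbour in the order of levels.

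Levels between genes were compared per kb of coding sequence (939 bases in TSA1 to 1875 bases in ASA1). In mock leaves at 6 h TSB1 stood at 175 ± 3.63 CPM per kb, followed by PAT1 (69.9 ± 2.58), TSA1 (53.1 ± 2.97), IGPS (44.5 ± 0.878), ASA1 (27.0 ± 1.40), ASA2 (24.8 ± 0.532) and TSB2 (6.52 ± 0.378; SD, n = 3 each). In mock leaves at 24 h TSB1 (68.1 ± 6.30 CPM per kb) and PAT1 (60.6 ± 4.93 CPM per kb) differed by less than the sum of their SDs, and TSB2 (18.3 ± 3.66 CPM per kb) stood above ASA2 (11.9 ± 0.368 CPM per kb).

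The share of TSB1 in the summed level of TSB1 and TSB2 per kb was 96.3% ± 0.367 in estradiol leaves and 96.4% ± 0.167 in mock leaves at 6 h, and 97.8% ± 0.280 in estradiol leaves and 97.4% ± 0.200 in mock leaves at 12 h. At 24 h it was 84.1% ± 0.367 in estradiol leaves, with libraries from 83.8 to 84.5%, and 78.9% ± 2.88 in mock leaves, with libraries from 76.4 to 82.02% (SD, n = 3 each). The share of ASA1 in ASA1 plus ASA2 at 24 h was 60.6% ± 1.27 in estradiol leaves (59.2 to 61.7%) and 69.4% ± 4.04 in mock leaves (66.6 to 74.0%). Neither share overlapped between estradiol and mock libraries at 24 h. These shares were not tested and restate the counts above. The coding sequences of TSB1 and TSB2 are 85.4% identical with a longest identical run of 35 bases. Those of ASA1 and ASA2 are 69.3% identical with a longest run of 16 bases. Whether any reads aligned to both genes of a pair was not tested.

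**Figure D4:**
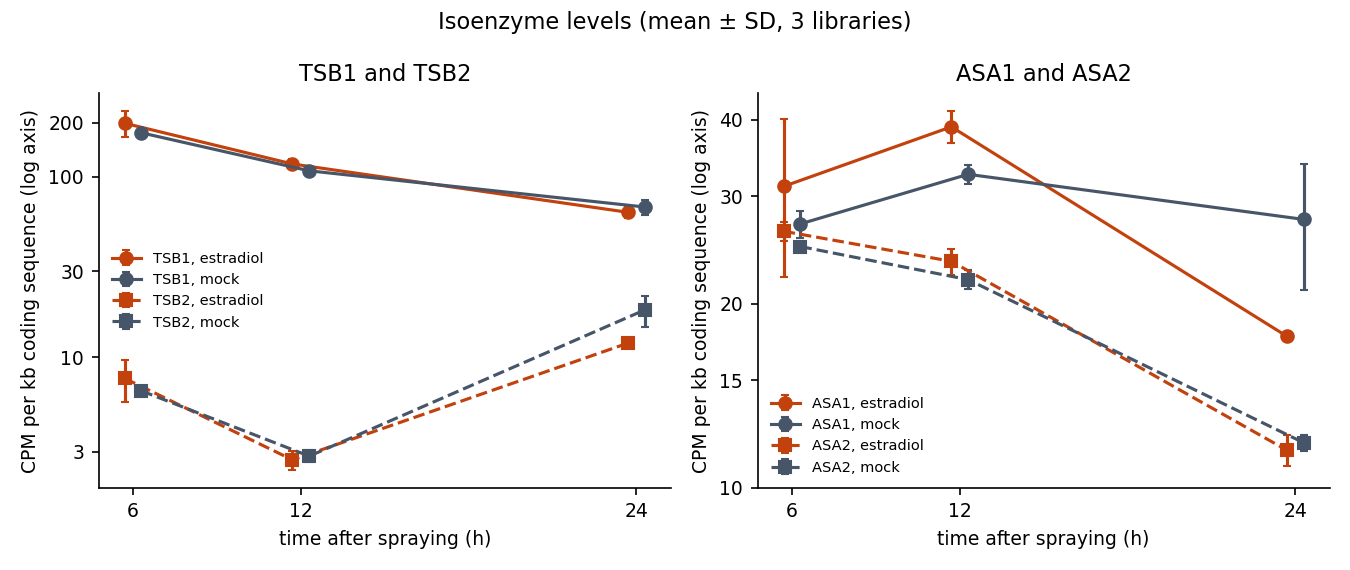
Level per kb of coding sequence (CPM per kb, log axis) against time after spraying for TSB1 and TSB2 (left) and ASA1 and ASA2 (right); points are means and bars SD of 3 libraries, with estradiol drawn just left of mock. In mock leaves TSB2 stands at 18.3 CPM per kb at 24 h, against 2.84 at 12 h, while TSB1 stands at 68.1 CPM per kb at 24 h, against 108 at 12 h.

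Likeness between patterns was measured as the root mean square difference of centred log2 CPM over the 18 libraries. Within the pathway the closest pair was IGPS and TSA1 (0.21), and TSB2 was far from every other member (0.89 to 1.41). Among 5746 other genes with a symbol and enough expression, the pattern of ASA1 was closest to that of ASB1 (0.17), then PARVUS (0.23), RMR1 (0.23), AtATG18a (0.23) and OTS2 (0.23). The mean pattern of the 7 genes was closest to SDP6 (0.12), SERAT1;1 (0.12), DCI1 (0.13), ADF1 (0.13) and PPH (0.14). Over the 18 libraries these genes spanned 0.59, 0.98, 0.59, 0.49 and 1.01 on the log2 scale. That mean joins members with unlike courses, and shared regulation was not tested.

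Of 9 other genes of the pathway, TSBtype2, a second type of tryptophan synthase beta, was the 1 that passed, and it rose. It averaged 41.3 ± 2.75 CPM in estradiol leaves and 35.3 ± 2.54 CPM in mock leaves at 12 h (log2 fold change 0.23, adjusted p 0.0322), and 48.4 ± 3.13 CPM in estradiol leaves and 41.5 ± 1.78 CPM in mock leaves at 24 h (0.22, adjusted p 0.0292; SD, n = 3 each, edgeR's quasi-likelihood test). The call at 12 h was lost without estradiol replicate 1 or 2 or mock replicate 1 or 3 of that time. The call at 24 h was lost under 5 of 15 alternatives, among them leaving out estradiol replicate 2 or 3 or mock replicate 2 of that time. Both calls were lost in the fit of the libraries of 1 time alone. Over all alternatives the adjusted p ran from 0.0165 to 0.206 at 12 h and from 0.0202 to 0.141 at 24 h. ASB1, the glutamine amidotransferase (beta) subunit of anthranilate synthase, averaged 43.3 ± 7.24 CPM in estradiol leaves and 32.8 ± 2.05 CPM in mock leaves at 12 h (log2 fold change 0.40, adjusted p 0.0769). The others were the isomerase genes PAI1, PAI2 and PAI3, a second amidotransferase gene AT5G57890, the TIM-barrel genes AT5G48220 and AT4G02610 and the pyridoxal-phosphate enzyme gene AT5G28237, whose group means lay between 0.0864 and 0.464 CPM. The table also lists 4 near copies of ASB1, chosen here after their values were seen, at 0 in all 18 libraries. They are 97.3% identical to ASB1 over the aligned coding bases, so counts of ASB1 are uncertain. PAI1 and PAI2 (99.4% identical) are uncertain for the same reason. ASB1 and AT5G57890 are 95.3% identical, with a longest identical run of 212 bases.

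Upstream of the pathway, 0 of 10 shikimate pathway genes passed at 6 and at 12 h by edgeR, DESeq2 and limma-voom (0 and 1 with an unadjusted p below 0.05 in edgeR), and at 24 h only the shikimate kinase gene SK2 was lower (log2 fold change -0.17, adjusted p 0.0483). That call was lost under 11 of 15 alternatives, among them leaving out any 1 estradiol library or mock replicate 2 or 3 of 24 h (adjusted p 0.0212 to 0.250 over all). In the phenylalanine and tyrosine branch 0 of 11 genes passed at any of the 3 times by edgeR's quasi-likelihood test. With an unadjusted p below 0.05 there were 1, 2 and 3 of them at 6, 12 and 24 h, beside 7.57%, 24.2% and 28.5% of all genes. DESeq2 called 1 lower at 24 h, and limma-voom called none. Without mock replicate 3 of 24 h 3 were called lower.

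Genes that use tryptophan moved in both directions. At 6 h 0 of 13 passed by edgeR, DESeq2 and limma-voom (5 with an unadjusted p below 0.05 in edgeR, beside 7.57% of all genes). Of all genes tested, 4.64% were called higher and 5.07% lower at 12 h, and 8.43% higher and 6.54% lower at 24 h. At 12 h 6 of 13 rose, led by camalexin genes: PAD3, the last enzyme of camalexin synthesis (log2 fold change 1.79, adjusted p 0.0188), CYP71A13 (1.71, adjusted p 0.00389), CYP71A12 (1.40, adjusted p 0.0431) and GSTF6 (1.27, adjusted p 0.0137). CYP71A12 was low, with 1.95 ± 0.721 CPM in estradiol and 0.761 ± 0.311 CPM in mock leaves at 12 h. At 24 h PAD3 (3.28, adjusted p 0.0107) and GSTF6 (2.26, adjusted p 0.000162) rose. PAD3 averaged 9.39 ± 5.14 CPM in estradiol and 1.05 ± 0.457 CPM in mock leaves at that time. At 12 h it had 115 ± 55.1 and 33.7 ± 13.5 CPM. GSTF6 averaged 65.3 ± 17.8 and 13.9 ± 6.15 CPM at 24 h, against 360 ± 143 and 149 ± 14.1 CPM at 12 h. Of the 13 genes 8 fell at 24 h, among them CYP79B3 (-0.95, adjusted p 8.88e-05) and CYP79B2 (-0.81, adjusted p 0.00266), which turn tryptophan into indole-3-acetaldoxime. CYP79B2 had 55.8 ± 1.70 CPM in estradiol leaves and 97.5 ± 26.1 CPM in mock leaves at 24 h, and CYP79B3 had 60.5 ± 2.22 CPM in estradiol leaves and 117 ± 28.2 CPM in mock leaves (SD, n = 3 each). As in ASA1 and TSB2, mock replicate 2 was the highest mock library in both, and both calls held without it (adjusted p up to 0.0227 for CYP79B2 and 0.00349 for CYP79B3 over all alternatives).

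The count of 6 at 12 h was 1 without estradiol replicate 1 or without mock replicate 3, and 2 without mock replicate 1 or without mock replicate 2. CYP71A13 passed under every alternative (adjusted p up to 0.0244), while the adjusted p reached 0.137 for PAD3, 0.269 for CYP71A12 and 0.114 for GSTF6, each without estradiol replicate 1. PAD3 (adjusted p 0.105) and CYP71A12 (0.0619) were also lost in DESeq2, and CYP71A12 with a replicate block (0.0607). At 24 h the count of 8 lower was 7 without mock replicate 2, and PAD3 did not pass without estradiol replicate 1, without mock replicate 2 or in limma-voom (adjusted p 0.000487 to 0.107 over all alternatives). No test set these genes against the synthesis genes.

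Among 5 regulators of indole metabolism, 4 of which were tested, MYB34, an activator of indole glucosinolate genes, fell at 12 h (log2 fold change -0.32, adjusted p 0.0435) and at 24 h (-0.91, adjusted p 8.59e-07). WRKY33, an activator of camalexin genes, rose at 12 h (0.72, adjusted p 0.0330) and at 24 h (1.04, adjusted p 0.00304). At 24 h MYB51, another activator of indole glucosinolate genes (1.08, adjusted p 0.00149) and the ethylene response factor gene ERF1 (2.07, adjusted p 0.0249) rose as well. ERF1 was low, with 0.704 ± 0.471 CPM in estradiol and 0.178 ± 0.0648 CPM in mock leaves (SD, n = 3 each). These were 48 and 15 counts over 3 libraries. The ERF1 call was lost under 3 of 13 alternatives, among them those named below. Among 4 genes that lead chorismate to salicylic acid, ICS1, the isochorismate synthase of defence, rose by 1.23 at 12 h (adjusted p 0.000139) and by 1.76 at 24 h (adjusted p 8.77e-08) on the log2 scale, and PBS3, which conjugates isochorismate, rose by 2.03 (adjusted p 2.80e-05) and by 1.62 (adjusted p 3.19e-07). ICS2 was lower at 24 h (-0.61, adjusted p 0.00294), a call lost in the fit of the 24 h libraries alone (adjusted p 0.00151 to 0.0595 over all alternatives). MYB34 at 12 h did not pass without estradiol replicate 1 or 2 or any 1 mock replicate of that time, in limma-voom or with a replicate block (adjusted p 0.0118 to 0.166 over all alternatives), WRKY33 at 12 h without estradiol replicate 1 or mock replicate 2 or 3 (0.0169 to 0.251), and ERF1 at 24 h without estradiol replicate 1 or mock replicate 2 (0.0167 to 0.237). The calls of MYB34, MYB51 and WRKY33 at 24 h and of ICS1 and PBS3 at both times held with any 1 library left out. Beside these calls, 4.64% of all genes were called higher and 5.07% lower at 12 h, and 8.43% higher and 6.54% lower at 24 h.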

How the data were processed

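The deposited table holds the authors' raw counts per gene in 18 libraries. Per the labels' protocols, polyadenylated RNA was extracted with RNeasy and made into TruSeq v2 libraries. The submitters' processing notes name FastQC 0.11.2, TopHat2 2.0.10, HTSeq and the build TAIR10, and whether counting used strand is not given in the sources used here. Rows without a gene held 5.76 to 6.71% of all counts and were left out.

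Counts were tested with edgeR 4.0.16 (TMM scaling, filterByExpr at its settings of 10 per library and 15 in all, quasi-likelihood F-tests on 6 group coefficients, 12 residual degrees of freedom). Benjamini-Hochberg adjustment of p-values ran over the 19227 genes tested, with calls below 0.05. CPM are TMM-scaled. With 3 libraries a group, an exact permutation test of 1 gene cannot go below p = 0.1, so none was used. Every pair of libraries in a group differed beyond sampling noise (chi-square over its degrees of freedom at least 2.91). On data simulated for the 12 h comparison, 72% of genes changed 1.5-fold and 87.5% of those changed 2-fold were recovered, and 9.89% of calls were false. That false share lay above the 0.05 aimed at. Apart from the genes changed at 12 h, each simulated gene had the same mean in all groups. The data hold more changes than that, so these shares may not carry over to them.

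Alternatives were DESeq2 1.42.0, limma-voom (limma 3.58.1), other scalings and filters, a replicate block, fits of single contrasts and leaving out libraries. Up to 4 called genes of each list, those with the largest log2 fold change, are named with values. The members, lists and tests were chosen with earlier results of these data known. Promoters and coding sequences are those of RefSeq's TAIR10.1, and the count table itself has no coordinates. The upstream window of TSB1 is not reported here.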

Additional observations from a re-analysis of the deposited data

Results flagged for a closer look

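The estradiol effect on ASA1 differed between times. Its log2 fold change of estradiol over mock leaves was -0.64 at 24 h and 0.26 at 12 h, and the test of the difference between these effects gave -0.90 (SE 0.22, adjusted p 0.0341, edgeR's quasi-likelihood test). At 24 h all 3 estradiol libraries lay below all 3 mock libraries, and at 12 h all 3 lay above them. The test did not pass without mock replicate 2 of 24 h (-0.69, adjusted p 0.114), the library with high jasmonate genes, nor without any 1 of 8 other libraries, and its adjusted p ran from 0.000211 to 0.114 over all alternatives.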

How the results depend on the processing

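Of 924 recomputed values for the 7 genes in 8 comparisons, 848 kept their direction and their side of the threshold, 24 gained a call, 17 lost one and 35 changed sign. Of 463 for the other named genes, 395 kept both, 68 lost the call and none changed sign. The causes were not tested. At 12 h 0 of the 7 genes were called higher, against 1 by DESeq2, 3 in the fit of the contrast's own libraries, 3 with both libraries with high jasmonate genes left out (chosen after seeing the data) and 0 to 1 with 1 library left out. At 24 h the 2 called lower became 0 to 2 with 1 library left out, with 0 without mock replicate 2. For the change of effect between 24 and 12 h, the 1 called lower became 2 in the contrast's own libraries, 2 with both libraries out and 0 to 1 with 1 out. In mock leaves 2 genes were called higher at 12 h against 6 h in the contrast's own libraries and 2 with both libraries out. At 24 h against 6 h 2 were called higher and 4 lower in the contrast's own libraries, and 5 lower with both libraries out.

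Upper-quartile scaling gave -0.0013 for PAT1 at 24 h and -0.024 for ASA1 in mock leaves at 24 h against 6 h, no filter gave -0.0027 for PAT1 at 24 h, and limma-voom gave 0.032 for the TSA1 change between 12 and 6 h. With both libraries out the values were -0.059 for ASA1, -0.056 for PAT1 and -0.0021 for TSB2 at 6 h, 0.060 for TSA1 at 24 h, 0.17 for PAT1, 0.32 for TSA1 and 0.091 for TSB1 in the change between 12 and 6 h, and -0.18 for ASA1 in mock leaves at 24 h against 6 h, the 1 changed sign that passed (adjusted p 0.0220, with a range of 0.0220 to 0.998 over its alternatives). With 1 library left out at a time, log2 values at 6 h ran from -0.059 to 0.34 for ASA1, from -0.056 to 0.30 for PAT1 and from -0.0019 to 0.35 for TSB2. At 24 h they ran from -0.058 to 0.058 for PAT1 and from -0.10 to 0.060 for TSA1. The change between 12 and 6 h ran from -0.078 to 0.32 for ASA1, from -0.024 to 0.048 for ASA2, from -0.18 to 0.17 for PAT1, from -0.22 to 0.32 for TSA1 and from -0.12 to 0.091 for TSB1, and ASA1 in mock leaves at 24 h against 6 h from -0.18 to 0.14.

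Counts over all genes moved with single libraries: 892 higher and 975 lower at 12 h became 270 and 281 without estradiol replicate 1, and 1257 lower at 24 h became 551 without mock replicate 2. Same-numbered libraries showed no steady likeness in their deviations from the group means (correlations -0.25 to 0.22). With 3 libraries a group this cannot show whether they were paired. A replicate block in edgeR's quasi-likelihood test changed no call of the 7 genes (adjusted p 0.0143 for ASA1 and 0.00771 for TSB2 at 24 h). The 7 genes had 119 counts or more in every library, with the fewest in TSB2 at 12 h (SE 0.18 for estradiol against mock leaves). How far depth limits their tests was not tested. Low genes such as AT5G28237 and ERF1 are limited by depth.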
